A study of Mus musculus with 15 samples.

Results

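A set of 10 genes of cytotoxic lymphocytes and natural killer (NK) cells was followed through bleomycin injury of the mouse lung. The 10 genes were Gzma, Gzmb, Gzmk, Prf1, Nkg7, Klrb1c, Ncr1, Klrg1, Ifng and Eomes, taken from the 33340 genes of the count table by name. The list of names was chosen with earlier results of these data known, so it is not independent of them. Of these, 8 passed the filter on low counts and were tested: Gzmk and Ifng did not. The 8 would also have been kept by the same filter without the day 0 libraries.

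RNA-seq counts came from whole lung of male C57BL/6 mice, an inbred wild-type strain. The study's methods give an age of 10 to 12 weeks for the mice of the bleomycin model. Bleomycin, a drug that breaks DNA and scars the lung, was given once into the trachea at 5 U/kg, and lungs were taken 7, 14 and 21 days later (4, 4 and 3 libraries). The 4 day 0 libraries were titled controls. For 3 of them the treatment label read none, and for day 0 replicate 4 it named bleomycin, so that library was grouped with day 0 on its title and time point, and its effect is given below. No vehicle-treated group was analysed here, so time after instillation, the instillation itself and bleomycin cannot be told apart. The study calls the libraries biological replicates, and the labels name no animal for any of them, so the p-values measure the spread between libraries.

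NK cells and cytotoxic T cells kill a target by releasing granules at the point of contact. Perforin opens the target's membrane, granzymes enter and cut proteins that trigger cell death, and interferon gamma is secreted to activate macrophages and antigen presentation. NK cells read a balance of activating and inhibitory surface receptors in place of an antigen receptor, and the lung holds many of them in its capillaries in health. Bulk lung RNA cannot tell fewer cells of a type from less RNA per cell, and no level below is a cell count.

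Sequence upstream of 3 of the genes is shown because T-box, RUNX and ETS factors are the textbook regulators of the cytotoxic program, and these 3 held the RUNX letters TGTGGTT. The RefSeq promoter table (GRCm38.p6) gave 10 windows for 9 of the genes, Ncr1 with 2 starts and Klrg1 with none. Each line gives the 250 bases before the start, 5′ to 3′ on the gene's strand, with the RUNX letters or their reverse complement AACCACA in capitals.
Gzma: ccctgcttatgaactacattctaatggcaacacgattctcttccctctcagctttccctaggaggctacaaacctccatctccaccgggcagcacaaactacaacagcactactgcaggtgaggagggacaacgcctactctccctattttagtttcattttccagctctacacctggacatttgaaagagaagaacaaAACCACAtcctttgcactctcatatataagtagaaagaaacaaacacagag
Gzmb: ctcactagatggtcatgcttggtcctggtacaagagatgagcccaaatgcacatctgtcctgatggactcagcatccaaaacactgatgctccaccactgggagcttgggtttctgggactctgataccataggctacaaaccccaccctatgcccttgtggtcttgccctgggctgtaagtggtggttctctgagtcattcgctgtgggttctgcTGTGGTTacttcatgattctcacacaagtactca
Ncr1: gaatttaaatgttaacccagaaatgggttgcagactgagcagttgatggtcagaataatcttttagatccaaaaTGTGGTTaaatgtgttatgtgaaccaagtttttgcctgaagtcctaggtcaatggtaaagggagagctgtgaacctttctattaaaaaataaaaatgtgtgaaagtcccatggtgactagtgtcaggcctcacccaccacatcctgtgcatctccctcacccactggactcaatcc
The Gzma stretch is chr13:113100982-113101231 on the minus strand and holds the letters at -51, where -1 is the base before the start. The Gzmb stretch is chr14:56262335-56262584 on the minus strand, with the letters at -34. The Ncr1 stretch is chr7:4337465-4337714 on the plus strand, with the letters at -176. Searched on both strands of all 300-base windows, from 250 bases before to 50 after the start, these letters occurred in 5.27% of 32851 promoters. The T-box letters TCACACC were found in the windows of Gzmk and Nkg7 and in 3.98% of all promoters. The ETS letters CAGGAAG were found in those of Prf1 and Nkg7 and in 13.3% of all promoters. The windows of Klrb1c, Ifng and Eomes held none of the 3 motifs. In these windows no motif overlapped another, and a match of letters is a description and not a binding site.

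The libraries held 15652008 to 18020661 counts, of which mitochondrial genes took 2.03% to 4.22%. In all, 17457 genes were tested, with a common biological coefficient of variation of 22.8%. A gene was called at a Benjamini-Hochberg adjusted p under 0.05 in edgeR's quasi-likelihood test and a fold change over 1.5. Levels are in CPM, counts scaled by a library size adjusted by the TMM method, and errors are SD over libraries for levels and standard errors (SE) for log2 fold changes.

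The cytotoxic genes were lower 14 and 21 days after bleomycin than at day 0. At day 14, 7 of the 8 tested were called lower and none higher, against 11.2% of all tested genes called lower and 12% called higher. At day 21 the same 7 were called lower and none higher, against 10.1% lower and 12.4% higher in the whole table. With the hemoglobin level of each library as a covariate the counts were 2 and 1, and the values are given with the hemoglobin genes. In libraries over 3.5% mitochondrial share 1 was called at day 14, beside 17.7% of all genes in either direction. At day 7 none was called, against 7.36% lower and 8.78% higher, and 3 of the 8 had an unadjusted p under 0.05. DESeq2 called 1 at day 7, Klrb1c, and limma voom 1, Gzma. A fit of the 2 groups alone called 2. In libraries under 2.5% mitochondrial share 5 were called, beside 12.8% of all genes in either direction. Klrg1 was the gene not called at any day. The median log2 fold change of the 8 was -0.94 at day 7, -1.96 at day 14 and -2.43 at day 21, beside 0.01, 0.02 and 0.02 for all genes tested.

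**Figure D1:**
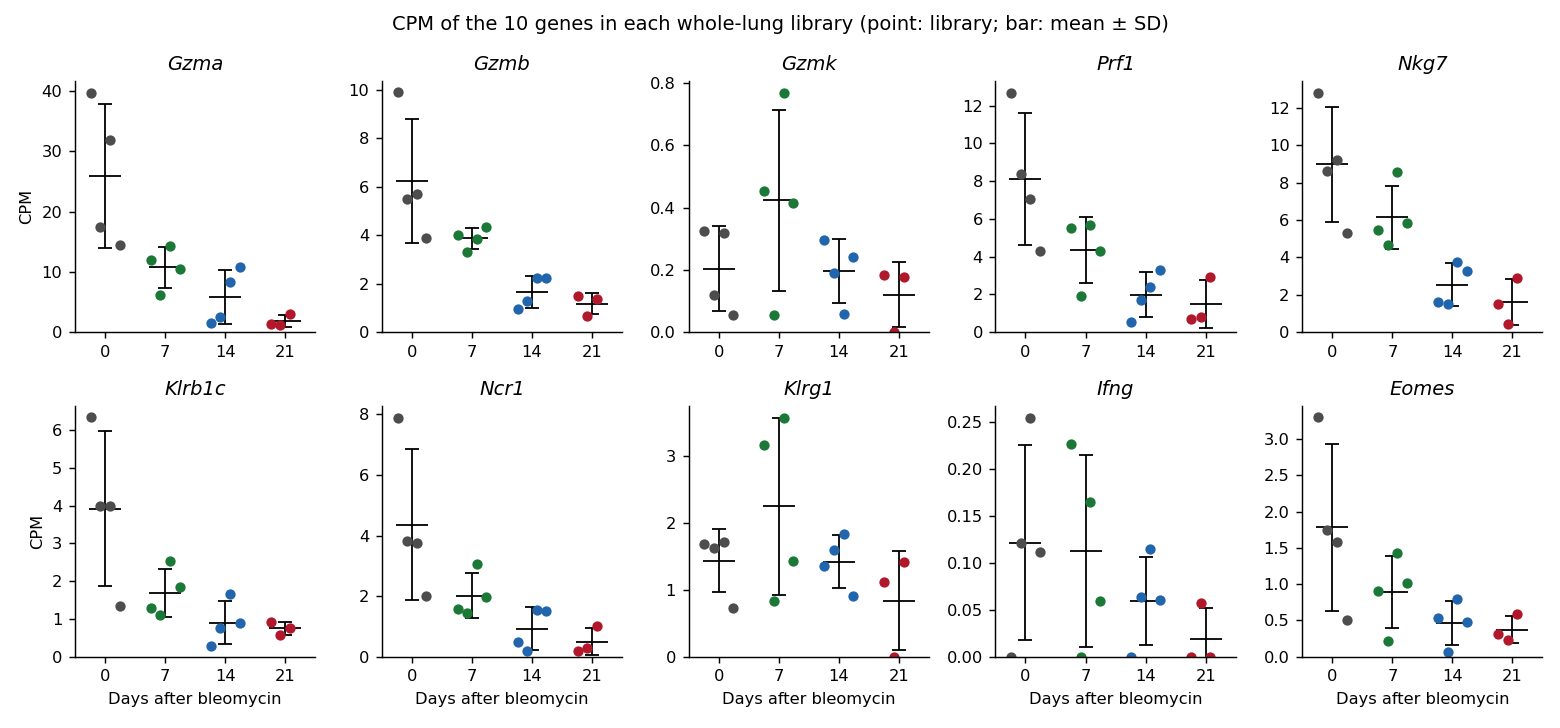
CPM of each of the 10 genes (vertical axes, linear, scaled per gene) in each library against days after bleomycin. Points are libraries and bars the mean with its SD, n = 4 at days 0, 7 and 14 and n = 3 at day 21. The day 21 libraries lie below every day 0 library for Gzma, Gzmb, Prf1, Nkg7, Klrb1c and Ncr1, while the Klrg1 libraries overlap with day 0 at every day.

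Granzyme A (Gzma), a granule protease that cuts substrates after basic residues, was the most abundant of the 10 (ENSMUSG00000023132, GRCm38 chr13:113093825-113100981, minus strand). Its level was 39.7, 17.5, 31.8 and 14.5 CPM in the day 0 libraries and 12, 6.19, 14.3 and 10.4 CPM at day 7. At day 14 it was 1.48, 2.55, 8.4 and 10.7 CPM, and at day 21 1.36, 1.2 and 3 CPM. Every later library lay below every day 0 library, already at day 7. The mean went from 25.9 ± 11.9 CPM (SD, n = 4) at day 0 to 1.85 ± 0.997 CPM (n = 3) at day 21. The fall was 4.45-fold at day 14 (log2 fold change -2.15, SE 0.52, adjusted p = 0.00492) and 13.9-fold at day 21 (-3.80, SE 0.64, adjusted p = 0.000482). At day 7 the log2 fold change was -1.27 (SE 0.50, adjusted p = 0.0727).

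Granzyme B (Gzmb), the protease that activates caspases in the target, lies on the minus strand of chromosome 14 (ENSMUSG00000015437, chr14:56258838-56262260). Its levels were 9.9, 5.5, 5.71 and 3.9 CPM at day 0 and 4.02, 3.29, 3.84 and 4.34 CPM at day 7. They were 0.944, 1.27, 2.23 and 2.23 CPM at day 14 and 1.48, 0.683 and 1.35 CPM at day 21. All libraries of days 14 and 21 lay below all of days 0 and 7, while days 0 and 7 overlapped. Gzmb fell 3.72-fold at day 14 (log2 fold change -1.90, SE 0.34, adjusted p = 0.000639) and 5.31-fold at day 21 (-2.41, SE 0.39, adjusted p = 0.000351). The day 7 log2 fold change was -0.69 (SE 0.32, adjusted p = 0.128).

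Perforin (Prf1), the pore-forming protein of the granule, is encoded on the plus strand of chromosome 10 (ENSMUSG00000037202, chr10:61297833-61304680). Its levels were 12.7, 8.4, 7.04 and 4.29 CPM at day 0, and 5.54, 1.9, 5.65 and 4.28 CPM at day 7. At day 14 they were 0.531, 1.72, 2.4 and 3.32 CPM and at day 21 0.679, 0.797 and 2.94 CPM. The day 14 and day 21 libraries lay below all day 0 libraries and overlapped with day 7, where replicate 2 was low. Prf1 fell 4.05-fold at day 14 (log2 fold change -2.02, SE 0.53, adjusted p = 0.00927) and 5.47-fold at day 21 (-2.45, SE 0.61, adjusted p = 0.00707). The day 21 log2 fold change ran from -3.48 to -2.14 on leaving out each library in turn.

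Nkg7 encodes a granule membrane protein that helps the granule release its content (ENSMUSG00000004612, chr7:43437073-43438249, plus strand). Its levels were 12.8, 8.64, 9.2 and 5.29 CPM at day 0 and 5.49, 4.68, 8.56 and 5.82 CPM at day 7. At day 14 they were 1.59, 1.53, 3.77 and 3.26 CPM and at day 21 1.48, 0.455 and 2.88 CPM. All later libraries from day 14 on lay below all of days 0 and 7. Nkg7 fell 3.52-fold at day 14 (log2 fold change -1.82, SE 0.43, adjusted p = 0.00459) and 5.58-fold at day 21 (-2.48, SE 0.50, adjusted p = 0.0017). Its day 21 log2 fold change ran from -3.26 to -2.07 on leaving out each library in turn.

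Granzyme K (Gzmk), a granzyme of resting and memory T cells, was near the detection limit (ENSMUSG00000042385, chr13:113171608-113225908, minus strand, overlapping Esm1 on the other strand with no shared exon base). Its levels ran from 0.0557 to 0.323 CPM at day 0, 0.0558 to 0.768 CPM at day 7, 0.0571 to 0.295 CPM at day 14 and 0 to 0.185 CPM at day 21. No library held more than 14 Gzmk counts. At day 7, 3 of 4 libraries lay above every day 0 library and replicate 2 did not, and the groups overlapped at every day. In a fit with no filter its log2 fold change was 1.03 at day 7 (SE 0.77, edgeR adjusted p = 0.456), with adjusted p-values of 1 and 0.672 at days 14 and 21, so no change was detectable at this depth.

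Among the NK cell receptors, Klrb1c encodes the lectin receptor NK1.1, by which NK cells of C57BL/6 mice are recognised (ENSMUSG00000030325, chr6:128778485-128789215, minus strand). It shares 413 exon bases with the predicted gene Gm44511 on the same strand, and how the counting split those reads is not known. Its levels were 6.34, 3.99, 4 and 1.34 CPM at day 0 and 1.3, 1.12, 2.52 and 1.84 CPM at day 7. They were 0.295, 0.765, 1.66 and 0.905 CPM at day 14 and 0.926, 0.569 and 0.764 CPM at day 21. Day 0 replicate 4 lay within the day 7 range and below 1 day 14 library, and the day 21 libraries lay below all of day 0. Klrb1c fell 4.27-fold at day 14 (log2 fold change -2.10, SE 0.49, adjusted p = 0.00415) and 5.16-fold at day 21 (-2.37, SE 0.55, adjusted p = 0.00476). At day 7 its log2 fold change was -1.20 (SE 0.46, adjusted p = 0.0696), and without day 0 replicate 4 it was -1.51 (adjusted p = 0.0264), the call at day 7 that leaving out that library added.

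Ncr1 encodes the activating receptor NKp46, found on NK cells and some innate lymphoid cells and, as a rule, not on T cells (ENSMUSG00000062524, chr7:4337724-4345164, plus strand). Its levels were 7.89, 3.81, 3.74 and 2.01 CPM at day 0 and 1.58, 1.45, 3.07 and 1.96 CPM at day 7. At day 14 they were 0.472, 0.191, 1.54 and 1.51 CPM and at day 21 0.185, 0.285 and 0.999 CPM. At day 7, 3 of 4 libraries lay below all of day 0, and at days 14 and 21 every library did. Ncr1 fell 4.63-fold at day 14 (log2 fold change -2.21, SE 0.59, adjusted p = 0.00926) and 8.75-fold at day 21 (-3.13, SE 0.70, adjusted p = 0.00366). On leaving out each library in turn, the day 21 log2 fold change ran from -4.20 to -2.72.

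Klrg1, an inhibitory receptor of mature NK cells and effector T cells that binds cadherins, was not called at any day (ENSMUSG00000030114, chr6:122270596-122282882, minus strand). Whether its change differed from those of the other genes was not tested. Its levels were 1.68, 1.63, 1.71 and 0.725 CPM at day 0 and 3.17, 0.837, 3.57 and 1.43 CPM at day 7. At day 14 they were 1.36, 1.59, 1.83 and 0.905 CPM and at day 21 1.11, 0 and 1.41 CPM. The day 7 libraries were split, with replicates 1 and 3 above and replicate 2 near the lowest control, and the groups overlapped at every day. The log2 fold change was 0.65 at day 7 (95% interval -0.72 to 2.02, adjusted p = 0.474), -0.01 at day 14 (-1.41 to 1.39, adjusted p = 0.991) and -0.77 at day 21 (-2.35 to 0.81, adjusted p = 0.453). The intervals hold changes of more than 2-fold in either direction at day 14, so the data do not show that Klrg1 kept its level. Day 21 replicate 2, at 0 counts, allows at most 3 counts.

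Eomes, the T-box transcription factor that NK cell maturation needs, was the least abundant of the called genes (ENSMUSG00000032446, chr9:118478212-118486132, plus strand). It shares 118 exon bases with the antisense gene Gm33460, and the strand setting of the counting is not stated. Its levels were 3.3, 1.75, 1.59 and 0.502 CPM at day 0 and 0.905, 0.223, 1.43 and 1.01 CPM at day 7. They were 0.531, 0.0637, 0.8 and 0.482 CPM at day 14 and 0.309, 0.228 and 0.588 CPM at day 21. Day 0 replicate 4 overlapped with every later day. Eomes was called at 3.71-fold lower at day 14 (log2 fold change -1.89, SE 0.64, adjusted p = 0.0332) and 4.67-fold lower at day 21 (-2.22, SE 0.73, adjusted p = 0.0309). The call was lost on leaving out day 0 replicate 1 or 2 or day 14 replicate 1, 2 or 4 at day 14, and day 0 replicate 1 or day 21 replicate 1 or 2 at day 21, with adjusted p up to 0.113.

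Ifng, the interferon gamma that activated NK and T cells secrete, had at most 4 counts in a library (ENSMUSG00000055170, chr10:118441046-118445892, plus strand, sharing 336 exon bases with Gm49751). Its highest level was 0.254 CPM at day 0, 0.226 CPM at day 7, 0.114 CPM at day 14 and 0.0569 CPM at day 21, and every day held at least 1 library at 0. A count of 0 allows up to 0.165 to 0.194 CPM in these libraries, counting error only, so a change of Ifng was not detectable at this depth.

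**Figure D2:**
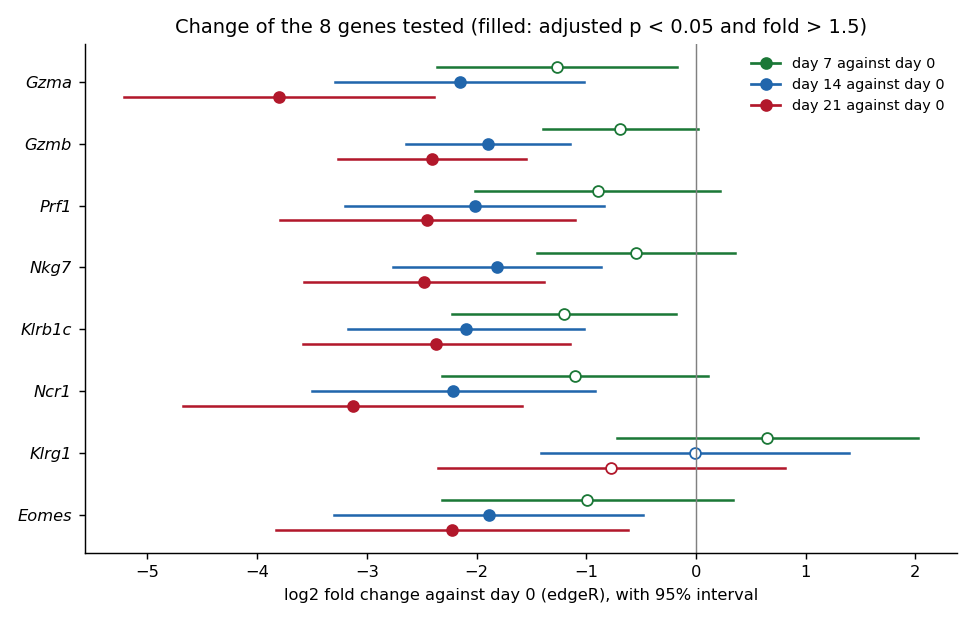
log2 fold change against day 0 (horizontal axis) of the 8 genes tested, at days 7, 14 and 21. Points are edgeR estimates with 95% intervals, filled where the gene was called. The intervals are wider than edgeR's p-values imply: Gzmb at day 7 has an unadjusted p of 0.0484 and an interval of -1.396 to 0.019. Open points at day 7 lie between -1.27 for Gzma and 0.65 for Klrg1, and 7 genes are filled at both later days, from -1.82 to -3.80.

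Day 21 was the day that lay farthest from day 0. Every library of the later day lay below every day 0 library for 1 of the 8 genes at day 7 (Gzma), 5 at day 14 and 6 at day 21, against 13.2%, 14.4% and 16.1% of all tested genes. The genes that overlapped at day 21 were Klrg1 and Eomes. Within day 0, replicate 1 was the highest library for 8 of the 10 genes and replicate 4, the library whose labels conflict, the lowest for 9 of 10. Their summed level over the 10 genes was 94.6 and 32.7 CPM, beside 51.4 and 65.4 CPM in replicates 2 and 3. Within day 7, replicate 2 was lowest for all 10. Leaving out day 0 replicate 4 left 7 genes called at both day 14 and day 21.

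Between later days fewer of the genes were called than at days 14 and 21 against day 0. The median log2 fold change of the 8 was -1.004 from day 7 to day 14, -1.64 from day 7 to day 21 and -0.59 from day 14 to day 21. From day 7 to day 14 only Gzmb was called (log2 fold change -1.21, SE 0.34, adjusted p = 0.0424), against 6% of all genes in either direction. That call was lost on leaving out any day 7 library or day 14 replicate 1, 2 or 3. From day 7 to day 21, 3 genes were called, against 9.54% of all genes. These were Gzma at -2.53 (SE 0.62, adjusted p = 0.0175), Gzmb at -1.72 (SE 0.39, adjusted p = 0.0121) and Nkg7 at -1.93 (SE 0.49, adjusted p = 0.0205). The count was 1 without day 21 replicate 1 or without replicate 2, and 5 without replicate 3. From day 14 to day 21 edgeR called none of the 8 and 0% of all genes, although 1714 genes and 1 of the 8, Gzma, had an unadjusted p under 0.05. DESeq2 called 106 genes in that step and none of the 8. The log2 fold change of Gzma was -1.64 there (SE 0.61, adjusted p = 0.406).

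Per kilobase of exon, the genes could be compared with each other. At day 0 Gzma was highest at 25.7 ± 11.9 CPM per kb (SD, n = 4), followed by Nkg7 at 9.83 ± 3.37, Gzmb at 4.35 ± 1.78, Prf1 at 3.14 ± 1.35, Ncr1 at 2.83 ± 1.62, Klrb1c at 1.32 ± 0.69 and Klrg1 at 1.02 ± 0.337. Eomes was at 0.429 ± 0.277, Gzmk at 0.147 ± 0.0983 and Ifng at 0.0938 ± 0.0802. From Gzmb down to Klrg1, each gene lay within the SD of the one above it in this order, as Ifng did of Gzmk. At day 21 Gzma was at 1.84 ± 0.991 CPM per kb (n = 3), beside Nkg7 at 1.76 ± 1.33. Klrg1, seventh in the order at day 0, stood at 0.595 ± 0.526, above Prf1 at 0.569 ± 0.492 and Ncr1 at 0.318 ± 0.288, all within an SD of each other.

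Across the 15 libraries the log2 CPM of the 7 called genes moved together, with Pearson's r of 0.779 to 0.953 over 21 pairs (median 0.9). After the mean of each day was taken out, the median was 0.732 (0.562 to 0.875), so the genes also moved together between libraries of the same day. Klrg1 against the 7 had r of 0.419 to 0.676 (median 0.485), and within days 0.282 to 0.75 (median 0.447), which overlaps with the range of the 7. These values describe 15 libraries that share days, depth and tissue sampling.

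The closest patterns among 13882 genes with a mean of at least 1 CPM were partly those of other NK receptors. Gzma was nearest to Klra8 (r = 0.973), which encodes the Ly49H receptor, then to Krt23 (0.964) and Gpt (0.959). Ncr1 was nearest to Ms4a4c (0.964), Klri2 (0.964) and Klrk1 (0.961), the last encoding NKG2D. Eomes was nearest to Klra4 (0.923), Ifi209 (0.907) and BC005537 (0.896). For Klrb1c, Nadk2 (0.953) and Klrc1 (0.932) were among the nearest. For the granule genes the nearest were mostly not genes of lymphocytes: Mob3b (0.967), Hepacam (0.956) and Arhgef38 (0.948) for Gzmb, Anp32a (0.962), Kif1bp (0.954) and the integrin gene Itgal (0.949) for Prf1, and Kif1bp (0.947), Mgme1 (0.940) and Hepacam (0.934) for Nkg7. Klrg1 was nearest to the T cell genes Icos (0.922) and Cd6 (0.868) and to Lsp1 (0.910). These r for Klrg1 include day 21 replicate 2, where it held 0 counts. Spearman's rank correlations were lower, at 0.761 for Icos, 0.646 for Cd6 and 0.739 for Lsp1. All r are over 15 libraries that share the same day groups.

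Ratios within a library set the NK genes beside T cell and all-leukocyte genes. The CPM of Ncr1 over that of Cd3e, a chain of the T cell receptor complex, was 1.42, 0.940, 0.628 and 0.529 in the day 0 libraries. It was 0.267, 0.456, 0.373 and 0.413 at day 7, all below day 0, and 0.267, 0.0857, 0.386 and 0.568 at day 14, where 1 library reached the day 0 range. At day 21 it was 0.0625, 0.152 and 0.283, again all below day 0. Ncr1 over Ptprc, the gene of the leukocyte antigen CD45 and 1 of 3 all-leukocyte markers, ran from 0.0148 to 0.0374 in day 0 libraries and from 0.0104 to 0.0195 at day 7, which overlapped, and from 0.00186 to 0.00927 at day 14 and 0.00177 to 0.00507 at day 21, both below day 0. Klrg1 over Nkg7 ran from 0.131 to 0.189 at day 0, from 0.278 to 1.04 at day 14, and was 0.75, 0 and 0.49 at day 21, so it was above day 0 in every library from day 14 on except day 21 replicate 2, which held no Klrg1 count. The median of Cd8a over Cd4 was 0.793 in day 0 libraries, 0.452 at day 7, 0.358 for day 14 and 0.549 for day 21. The ratios were chosen with the levels known and are given as values with no test.

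**Figure D3:**
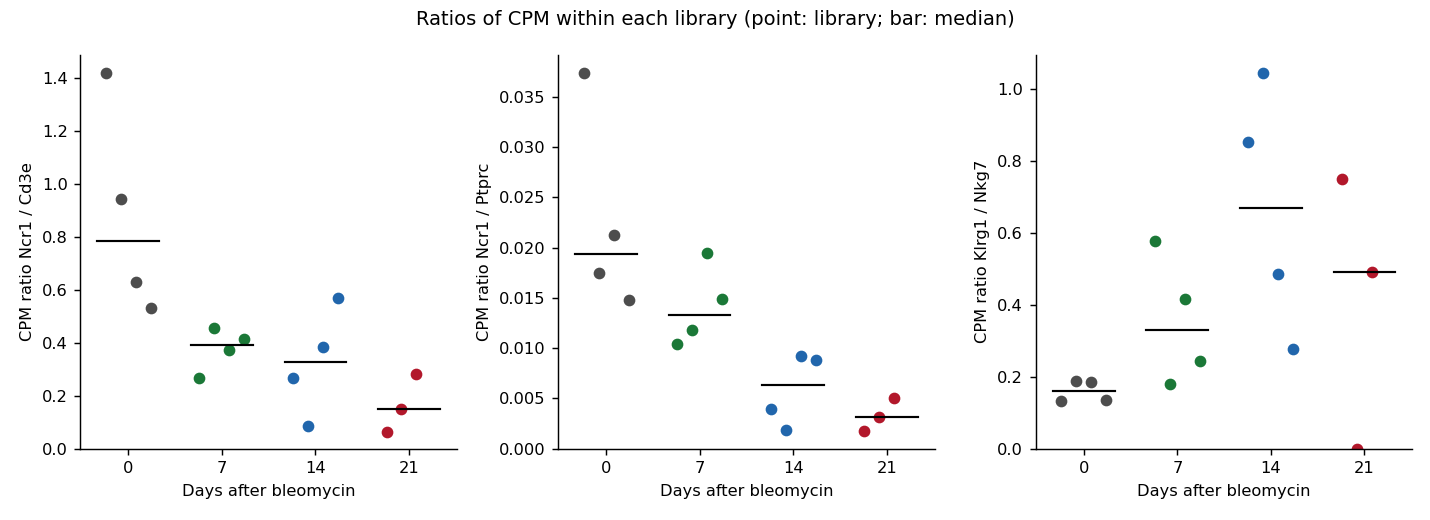
Ratio of CPM within each library (vertical axes, linear) of Ncr1 to Cd3e, Ncr1 to Ptprc and Klrg1 to Nkg7, against days after bleomycin. Points are libraries and bars the median of the day. Ncr1 to Cd3e has a median of 0.784 at day 0 and 0.152 at day 21, while Klrg1 to Nkg7 has a median of 0.162 at day 0 and 0.668 at day 14.

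The counts of the gene lists stand beside the shares of all tested genes, which were 7.36% lower and 8.78% higher at day 7, 11.2% lower and 12% higher at day 14, and 10.1% lower and 12.4% higher at day 21. Of 22 NK receptor and adaptor genes tested, 12 were called lower and 3 higher at day 14, 11 lower and 3 higher at day 21, and none lower and 2 higher at day 7. The median log2 fold change was -1.22 at day 14 and -1.16 at day 21. Klra4 went from 2.68 ± 1.22 CPM (SD, n = 4) at day 0 to 0.482 ± 0.44 CPM at day 14 (log2 fold change -2.44, SE 0.67, adjusted p = 0.0115). Klra8 went from 4.93 ± 2.22 CPM to 1.01 ± 0.742 CPM (-2.28, SE 0.54, adjusted p = 0.0045) and Klre1 from 5.13 ± 1.15 CPM to 1.21 ± 1.03 CPM (-2.07, SE 0.55, adjusted p = 0.00899). Klra9 went from 2.59 ± 1.38 CPM to 0.651 ± 0.503 CPM (-1.97, SE 0.60, adjusted p = 0.0206). The Klra genes encode Ly49 receptors, near-identical paralogs whose reads the counting could split or drop, so single members of that family are uncertain. Klrk1, which encodes the activating NKG2D, went from 6.84 ± 1.58 CPM to 2.93 ± 0.933 CPM at day 14 (-1.22, SE 0.28, adjusted p = 0.00424). Klrd1, the CD94 partner chain of NKG2 receptors, went from 9.25 ± 2.23 CPM to 3.96 ± 1.77 CPM (-1.22, SE 0.31, adjusted p = 0.00767).

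The 3 members of that list called higher at both days were Fcgr3, Fcer1g and Tyrobp, a receptor for IgG and signalling chains that macrophages also express. Their log2 fold changes at day 14 were 1.86 (SE 0.21, edgeR adjusted p = 1.51e-05), 1.18 (SE 0.20, adjusted p = 0.00046) and 1.05 (SE 0.18, adjusted p = 0.000409). Il2rb, the chain by which NK cells receive IL-2 and IL-15, was at 15.2 ± 5.02 CPM at day 0, 14 ± 2.65 CPM at day 7 and 6.52 ± 0.542 CPM at day 14 (log2 fold change -1.22, SE 0.25, adjusted p = 0.0016). Hcst and Cd244a, an adaptor and a co-receptor, were at -0.13 and -0.02 at day 14 with adjusted p-values of 0.817 and 0.951.

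Of 11 other granule and death-receptor genes tested, 3 were called lower and none higher at both day 14 and day 21, beside 11.2% and 10.1% of all genes called lower, and none was called at day 7. The median log2 fold change was -0.11 at day 14. Fasl, the ligand of the Fas death receptor, was at 1.38 ± 0.542 CPM at day 0 and 0.428 ± 0.425 CPM at day 14 (log2 fold change -1.67, SE 0.62, adjusted p = 0.0481). Gzmm, a granzyme of NK cells, went from 2.06 ± 0.14 CPM to 1.14 ± 0.322 CPM (-0.85, SE 0.29, adjusted p = 0.0364), and Rab27a, which brings granules to the membrane, changed by -0.65 (SE 0.17, adjusted p = 0.00891). The other 8 lay between -0.64 (Tnfsf10) and 0.55 (Serpinb9) at day 14. Among them Ctsc, the protease that activates granzymes, passed the adjusted p but not the fold threshold (0.39, SE 0.12, adjusted p = 0.0211). Gzmc, Gzmd, Gzme, Gzmf, Gzmg and Gzmn were not tested.

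Of 11 transcription factors of NK and cytotoxic cells, 2 were called lower and 2 higher at day 14, where the shares of all genes were 11.2% and 12%. At day 21 the counts were again 2 and 2, with 10.1% and 12.4% of all genes, and at day 7 4 were called higher and none lower, with 8.78% and 7.36%. Tbx21, the T-bet that NK cells and type 1 T cells share, was at 2.51 ± 1.4 CPM at day 0, 2.55 ± 1.003 CPM at day 7 and 0.736 ± 0.296 CPM at day 14. Its log2 fold change was 0.03 at day 7 (SE 0.46, adjusted p = 0.972), a sign that other settings turn, and -1.75 at day 14 (SE 0.50, adjusted p = 0.0141). Prdm1, the repressor BLIMP1, was also lower at day 14 (-0.76, SE 0.20, adjusted p = 0.00894). Tbx21 and Prdm1 were the 2 called lower at both days. Bhlhe40 (0.96, SE 0.19, adjusted p = 0.00118) and Nfil3 (0.88, SE 0.27, adjusted p = 0.0219), both also used outside lymphocytes, were the higher genes at day 14. At day 21 these were Bhlhe40 and Zeb2 (0.68, SE 0.16, adjusted p = 0.0041), and Nfil3 was not called (adjusted p = 0.108).

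Of 15 homing and chemokine genes, 5 were called lower and 2 higher at day 14, 4 lower and 2 higher at day 21, and 2 in each direction at day 7. S1pr5, the sphingosine phosphate receptor that lets NK cells leave bone marrow and lymph nodes, went from 3.29 ± 0.846 CPM at day 0 to 0.772 ± 0.579 CPM at day 14 (log2 fold change -2.07, SE 0.55, adjusted p = 0.00961) and 0.313 ± 0.244 CPM at day 21 (-3.36, SE 0.68, adjusted p = 0.00192). Ccl5, a chemokine made by NK and T cells, was at 15.7 ± 7.51 CPM at day 0, 13 ± 3.79 CPM at day 7 and 6.94 ± 1.52 CPM at day 14 (-1.18, SE 0.36, adjusted p = 0.0192). Ccl3, a chemokine that macrophages make as well, was higher at day 14 (1.97, SE 0.42, adjusted p = 0.00227).

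Of 13 cytokine, receptor and signalling genes of the IL-12, IL-15 and IL-18 axis, 2 were called higher and 2 lower at day 7, 4 higher and 1 lower at day 14, and 2 higher and none lower at day 21. The shares of all tested genes were 8.78% higher and 7.36% lower at day 7, 12% and 11.2% at day 14 and 12.4% and 10.1% at day 21. Il15, the cytokine on which NK cell survival depends, was at 7.76 ± 1.21 CPM at day 0 and 3.96 ± 1.17 CPM at day 7 (log2 fold change -0.97, SE 0.24, adjusted p = 0.00931). Its day 14 level was 5.62 ± 1.23 CPM (-0.46, SE 0.24, adjusted p = 0.146) and its day 21 level 6.51 ± 1.31 CPM (-0.25, SE 0.26, adjusted p = 0.492). The other cytokine genes tested were not called at any day: at day 7 Il12a was at -0.92 (adjusted p = 0.11), Il18 at -0.49 (adjusted p = 0.189) and Il12b at 1.03 (adjusted p = 0.276). Il15ra, which presents IL-15, was also lower at day 7 (-0.80, SE 0.17, adjusted p = 0.00369). Il12rb2, a receptor chain for IL-12, went from 1.3 ± 0.69 CPM at day 0 to 0.376 ± 0.152 CPM at day 14 (-1.76, SE 0.49, adjusted p = 0.0127). Il18bp, a secreted inhibitor of IL-18, was higher at every day, by 1.19 at day 14 (SE 0.25, adjusted p = 0.00202). The receptor genes Il21r (0.88, SE 0.26, adjusted p = 0.0168) and Il18r1 (0.63, SE 0.17, adjusted p = 0.0108) were higher at day 14.

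Of 16 receptor and response genes of interferon gamma, 5 were called higher and none lower at day 7, 5 higher and 1 lower at day 14, and 3 in each direction at day 21. Cxcl9, a chemokine for CXCR3-bearing lymphocytes, went from 0.697 ± 0.293 CPM at day 0 to 7.95 ± 2.48 CPM at day 7 (log2 fold change 3.51, SE 0.49, adjusted p = 0.000206) and was at 3.35 ± 0.542 CPM at day 14 (2.27, SE 0.48, adjusted p = 0.0023). Cxcl10 went from 1.78 ± 0.321 CPM to 14.3 ± 2.57 CPM at day 7 (3.01, SE 0.36, adjusted p = 6.92e-05). Nos2, the inducible nitric oxide synthase, was higher by 1.77 at day 14 (SE 0.33, adjusted p = 0.00083). Ido1, the tryptophan-degrading enzyme, was lower at day 14 (-1.66, SE 0.42, adjusted p = 0.00725). Ifngr1, the receptor's binding chain, was at -0.41 at day 14 (SE 0.11, adjusted p = 0.0111), a change under the 1.5-fold threshold.

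Of 11 ligands of NK receptors tested, 3 were called higher and 2 lower at day 14, 2 higher and 2 lower at day 7 and 2 higher and 3 lower at day 21. The shares of all tested genes called higher and lower were 12% and 11.2% at day 14, 8.78% and 7.36% at day 7, and 12.4% and 10.1% at day 21. Ligands of NKG2D went both ways. Ulbp1, a stress ligand, went from 5.61 ± 1.06 CPM at day 0 to 26.1 ± 5.76 CPM at day 14 (log2 fold change 2.21, SE 0.22, adjusted p = 4.62e-06). Raet1d was at 0.06 ± 0.0494 CPM at day 0 and 0.499 ± 0.206 CPM at day 14 (2.89, SE 0.85, adjusted p = 0.0163), with no library above 24 counts. H60c was at 2.42 ± 0.762 CPM at day 0, 1.94 ± 1.66 CPM at day 14 (-0.31, SE 0.56, adjusted p = 0.709) and 0.578 ± 0.251 CPM at day 21, where it was called lower (-2.06, SE 0.68, adjusted p = 0.0326). Raet1e was at 0.72 at day 14 (SE 0.32, adjusted p = 0.0937), and H60b was not tested. Clec2d (-0.69, SE 0.16, adjusted p = 0.00465) and Clec2i (-1.13, SE 0.33, adjusted p = 0.0162), ligands of receptors of the NKR-P1 family, were lower. Cd48, which binds the co-receptor Cd244a, was higher at day 14 (0.83, SE 0.23, adjusted p = 0.0125).

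**Figure D4:**
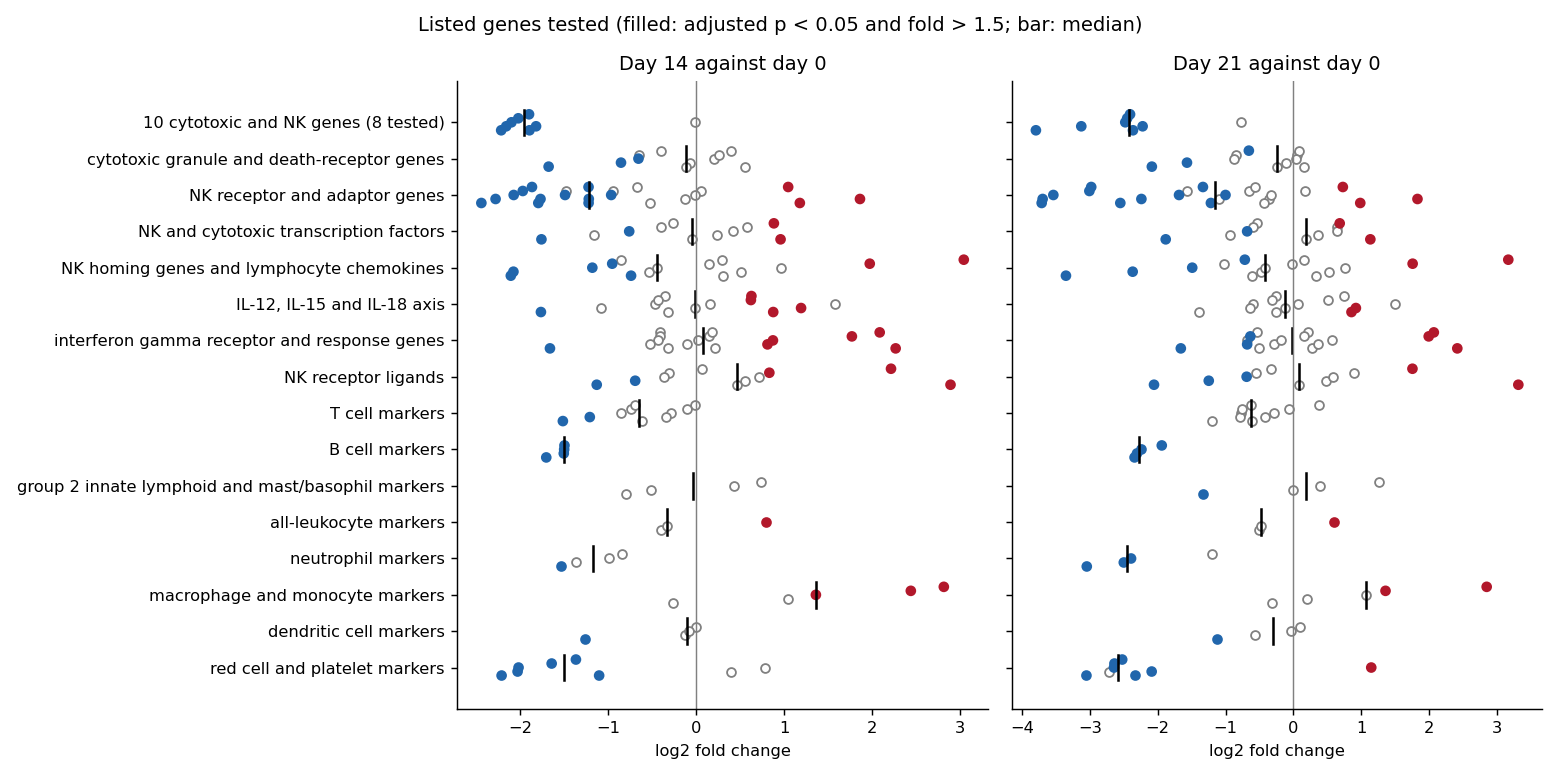
log2 fold change against day 0 (horizontal axes) at day 14 and day 21 of each tested gene of each list. Each point is 1 gene, blue or red where called lower or higher and open where not called, and the bar is the list's median. The cytotoxic and NK genes have medians of -1.96 and -2.43, beside -0.65 and -0.62 for T cell markers and 1.36 and 1.07 for macrophage markers.

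Markers of other blood and tissue cells moved too. Of 10 T cell markers, none was called at day 7 or day 21, and Cd8a (log2 fold change -1.21, SE 0.35, adjusted p = 0.0165) and Cd8b1 (-1.51, SE 0.50, adjusted p = 0.0286), the chains of the CD8 co-receptor, were called lower at day 14. Cd3e was at -0.86 (SE 0.32, adjusted p = 0.0514) and Cd4 at -0.10 (SE 0.31, adjusted p = 0.828) at day 14. The summed T cell marker level was 39.9 to 62.6 CPM at day 0 and 26.4 to 44.9 CPM at day 14. All 4 B cell markers were called lower at days 14 and 21, with medians of -1.50 and -2.27, and none at day 7. Of 4 neutrophil markers, 3 were called lower at day 7, 1 at day 14 and 3 at day 21. Of 5 macrophage and monocyte markers, 3 were called higher at day 14, 2 at day 7 and 2 at day 21, and none lower. C1qa was higher at day 14 by 2.81 (log2 scale, SE 0.30, adjusted p = 7.89e-06). Of 4 dendritic cell markers, Clec9a was called lower at days 7, 14 and 21 and Flt3 higher at day 7 (0.91, SE 0.29, adjusted p = 0.0324), and of 4 markers of group 2 innate lymphoid and mast cells Gata3 was called lower at day 21. Of 3 all-leukocyte markers, 1 was called at day 14: Ptprc was at 185 ± 37.6 CPM at day 0 and 139.9 ± 34 CPM at day 14 (-0.40, SE 0.23, adjusted p = 0.197) and Coro1a at -0.33 (adjusted p = 0.224), while Laptm5 was called higher (0.80, SE 0.16, adjusted p = 0.00125), as it was at day 21. Lung structural markers went both ways: from day 0 to day 21 the means of Scgb1a1 and Sftpc, genes of airway and alveolar epithelium, were 27860 and 3086 CPM and 19370 and 3706 CPM, while those of Col1a1, a collagen chain, were 312.9 and 2480 CPM. Cardiac and adipose markers summed to 1.36 to 144.6 CPM at day 0, 4.64 to 413.6 CPM at day 7, 1.42 to 5.43 CPM at day 14 and 0.911 to 352.8 CPM at day 21. The part of these changes in the cytotoxic genes was not tested.

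Of 8 red cell and platelet markers, 4 were called lower at day 7, 6 at day 14 and 6 at day 21. None was called higher at day 7 or 14, and 1 was at day 21. The mean of Slc4a1 was 6.74 ± 8.18 CPM at day 0, 8.8 ± 13.1 CPM at day 14 and 1.01 ± 0.597 CPM at day 21. Pf4 was at 12.6 ± 1.87 CPM at day 0 and 28 ± 15.4 CPM at day 21. Of 4 hemoglobin genes, which mark red cells, all were called lower at days 14 and 21 and 3 at day 7. The summed CPM of 4 hemoglobin genes was 4224, 2037, 1291 and 2411 in the day 0 libraries and 904, 480.9, 973.7 and 1353 at day 7. It was 868.1, 1689, 1051 and 637.6 at day 14 and 390.5, 689.6 and 527.3 at day 21. Day 21 lay wholly below day 0, so day and hemoglobin level cannot be told apart there. With the hemoglobin level as a covariate, 2 of the 8 genes were called at day 14 (Gzmb at -1.73, adjusted p = 0.019, and Nkg7 at -1.79, adjusted p = 0.0499) and 1 at day 21 (Gzma at -3.82, adjusted p = 0.0443). The log2 fold changes of the 7 genes were -1.25 to -2.17 at day 14 and -1.20 to -3.82 at day 21 in that fit, and 15.5% and 3.8% of all genes were called in it. Over the 15 libraries, which share days, the log2 sums of the hemoglobin genes and of the 10 genes had a Pearson's r of 0.627, and 0.032 after the mean of each day was taken out, both given as a description. Day 0 replicate 1 was the highest of its day in both (94.6 CPM for the 10 genes) and day 7 replicate 2 the lowest of its day in both (19.7 CPM). Day 14 replicate 4 had the lowest hemoglobin of its day and the highest sum of the 10 genes (23.6 CPM), and day 0 replicate 3 the lowest hemoglobin and the second highest sum (65.4 CPM). The red cell markers were added after the data were seen.

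**Figure D5:**
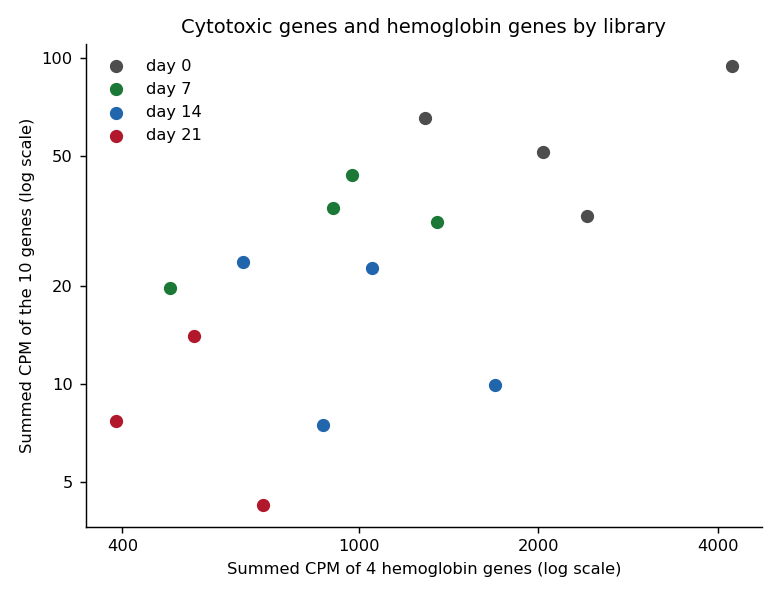
Summed CPM of the 10 cytotoxic and NK genes (vertical axis, log scale) against the summed CPM of 4 hemoglobin genes (horizontal axis, log scale), 1 point per library coloured by day. Day 0 libraries lie at 32.7 to 94.6 CPM of cytotoxic genes and day 21 libraries at 4.27 to 14.1 CPM. On the horizontal axis days 7 and 14 overlap with both, with day 7 replicate 4 (1353 CPM) and day 14 replicate 2 (1689 CPM) in the day 0 range and day 7 replicate 2 (480.9 CPM) and day 14 replicate 4 (637.6 CPM) in the day 21 range.

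The mitochondrial share also differed between libraries of the same day. Among libraries with a share over 3.5%, 2 at day 0 and 3 at day 14, only Gzmb was called at day 14 (log2 fold change -1.33, adjusted p = 0.0343), and the other 6 genes lay between -1.18 and -1.69 with adjusted p-values of 0.0514 to 0.346. In that fit 17.7% of all genes were called in either direction. Day 0 replicate 4 was among these libraries. Among libraries with a share under 2.5%, 2 at day 0 and 4 at day 7, 5 of the 8 genes were called lower at day 7 already, from -1.004 for Gzmb to -1.62 for Klrb1c, beside 12.8% of all genes called in either direction. Both splits leave 2 controls, and day 0 replicates 1 and 2 are the controls with the low share.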

How the data were processed

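RNA-seq counts of whole lung from 15 libraries were analysed. Per the study's methods, reads were cleaned with TrimGalore and mapped to mm10 (GRCm38) by HISAT2 2.1.0, without multi-mapped reads. The authors deposited raw counts per Ensembl gene from HTSeq 0.6.0. Their own test was DESeq2 1.40.2. The annotation release and the strand setting are not given in the sources used here. Day, group and replicate came from the sample titles, which give more replicates than the series description.

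Symbols and coordinates came from GENCODE M21, which matched 33267 of 33340 genes (the rest held 0.00889% of the counts). Counts were tested with edgeR 4.0.16 (R 4.3.3): filterByExpr, TMM, glmQLFit and glmQLFTest on the day group, all libraries in 1 fit, Benjamini-Hochberg over 17457 genes. The fold threshold of 1.5 is that of the study. Log2 CPM used a prior count of 2. Promoters of chromosome 18 were left out of the motif search. Floors are 3 counts and cover counting error only.

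The genes named are the 10 members, up to 4 called genes a list by their size at day 14, genes fixed by name, and the 3 genes most like each tested member, predicted genes and receptor segments left out. Cd244a, Clec2d, Coro1a, Ctsc, Fcer1g, Flt3, H60c, Il12a, Il12b, Il18, Raet1e, Fcgr3, Hcst, Il15ra, Pf4, Serpinb9, Slc4a1, Tnfsf10, Tyrobp and Zeb2 were named beside that rule after their values were seen. Some genes that the rule names are not reported here. Members and lists were chosen with earlier results of these data known. The scripts were tested on simulated data. Alternatives included DESeq2 1.42.0, limma 3.58.1 voom, other scaling and filters, a replicate block, mitochondrial and hemoglobin terms and leaving out each library.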

Additional observations from a re-analysis of the deposited data

Results flagged for a closer look

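Klrg1 in day 0 replicate 4, at 0.725 CPM, stood apart from the other day 0 libraries, which lay between 1.63 and 1.71 CPM. Its gap to the nearest of them was 0.918 of the group's range, above Dixon's 95% critical value for 4 samples. It was 1 of 30 groups of 4 tested (10 genes at 3 days), where chance flags about 5%. This is the library whose title and treatment label differ, and it was the lowest day 0 library for 9 of the 10 genes.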

How the results depend on the processing

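The 7 calls at day 14 and at day 21 held in number under DESeq2, RLE factors, total count scaling, no filter, each comparison's groups alone and the replicate block, and were 6 or 7 on leaving out each library in turn. They were 6 with limma voom, glmTreat and a mean of at least 1 CPM, where Eomes was not tested. A fit with mitochondrial share as a term gave 6 at day 14, without Eomes (adjusted p = 0.0555), and 7 at day 21. They were 1 at day 14 in libraries over 3.5% mitochondrial share, 2 at day 14 and 1 at day 21 with the hemoglobin level as a covariate, an alternative chosen after seeing the data. At day 7, where none was called, DESeq2, no filter, the replicate block and limma voom gave 1 each, the 2 groups alone gave 2, libraries under 2.5% mitochondrial share gave 5, and leaving out each library gave 0 to 1. For day 14 against day 7, where 1 was called, DESeq2, no filter, the 2 groups alone and the replicate block gave 2, glmTreat and the mitochondrial share as a covariate gave 0, and leaving out each library 0 to 1. For day 21 against day 7, where 3 were called, DESeq2 gave 5, glmTreat 0 and leaving out each library 1 to 5. The cause was not tested, beyond the fewer libraries of the splits.

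Signs turned only in log2 fold changes that were not called. Klrg1 at day 14 (-0.01) was 0.0026 with the replicate block, 0.038 with limma voom, 0.0211 with the mitochondrial share as a covariate, 0.24 in libraries over 3.5% mitochondrial share, 0.12 with hemoglobin, and -0.26 to 0.15 on leaving out each library. Tbx21 at day 7 (0.03) was 0.00 with DESeq2, -0.0015 with RLE factors, -0.0056 with a mean of at least 1 CPM, -0.0636 with the mitochondrial share, -0.28 in libraries under 2.5% and -0.25 to 0.43 on leaving out each library. With hemoglobin, day 7 values were 0.16 for Il2rb and 0.0567 for Ccl5. On leaving out each library, day 7 values ran from -0.53 to 0.0277 for Ccl5, -0.0649 to 0.38 for Cd3e, -0.33 to 0.0071 for Cd8a and -0.25 to 0.11 for Il2rb, and day 14 values from -0.22 to 0.0551 for Cd4.

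The labels do not say whether the replicate numbers pair the libraries, and the values do not settle it. Of 21 same-numbered pairs, 8 had correlated deviations over r = 0.1 (range -0.244 to 0.397). Of 42 searches for the best match, 17 found the same number. No rate expected by chance was computed, and the replicate block is given among the alternatives. Depth limited Gzmk, with at most 14 counts, and Ifng, with at most 4. The Eomes call was lost on leaving out 5 of 8 libraries at day 14 and 3 of 7 at day 21, and the cause was not tested.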
